A study of Rattus norvegicus with 4 samples.

Results

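Spi1, Cebpa, Cebpb, Cebpd, Maf, Runx1, Klf4, Gata2 and Zeb2 are genes of transcription factors that set or hold the identity of myeloid cells. They were chosen by name, and every probe on the array whose accession matched one of these 9 symbols was taken. All 9 genes were on the array, through 13 probes at 33 printed spots, out of 16581 genes that could be named. Expression was measured in NR8383 cells, a rat alveolar macrophage line derived from lung washings of a normal animal, after 4 h with titanium dioxide particles (NM105, P25 anatase/rutile) at 3 cm2 of particle surface per cm2 of culture. The cells had been through 20 passages, were kept in 15% serum and had been seeded 48 h before. There were 4 exposed cultures, called replicates 1 to 4, each on 1 array, and they form 1 group. Untreated cultures of the study were not analysed here, and no value below is an effect of the particles. NR8383 is 1 line, so the values describe this line and no other alveolar macrophages.

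Myeloid cells arise when a few transcription factors act in combination. PU.1, the product of Spi1, binds purine-rich sites and opens enhancers of myeloid genes, and its dose helps to steer progenitors toward macrophages. The C/EBP proteins are basic leucine zipper factors that pair with each other: C/EBPα drives early granulocyte and monocyte progenitors, while C/EBPβ and C/EBPδ are better known from mature and activated macrophages. RUNX1 and GATA2 act early, in stem and progenitor cells. KLF4 promotes monocyte differentiation, MAF (c-Maf) helps to hold differentiated macrophages out of cycle, and ZEB2 is needed for tissue macrophages to keep their identity.

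The readout is the Cy3 signal of each probe after Agilent's background subtraction, in intensity units. Replicate 1 was the brightest array and replicate 2 the dimmest: the array reference, which is the 75th percentile among probes with signal on every array, ran from 585 units on replicate 2 to 1431 on replicate 1. A level is log2 of the signal relative to that reference, so that a level of 0 equals the reference. Levels place 1 probe on different arrays; they do not rank genes, since probes differ in brightness. Detection is the scanner software's call of signal well above background. A probe needed the call at over 50% of its spots on an array, and a gene needed 1 such probe. The dimmest detected spot on an array had 14.5 to 17.7 units, and the 99th percentile of the negative controls lay at 5.07 to 5.96 units.

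Of the 9 lineage factors, 5 were detected on all 4 arrays: Spi1, Cebpb, Cebpd, Runx1 and Zeb2. Klf4 was detected on 2 arrays, and Cebpa, Maf and Gata2 on none. Over all named genes, 35.2% were detected on all 4 arrays and 46.3% on at least 1, against 5 and 6 of the 9 factors. The 9 genes were chosen by name with earlier results of these data known, so this was left as a description, with no test. A factor that was not detected may still be transcribed below the reach of its probe, and in RNA from a whole culture fewer expressing cells and less RNA per cell cannot be told apart.

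**Figure D1:**
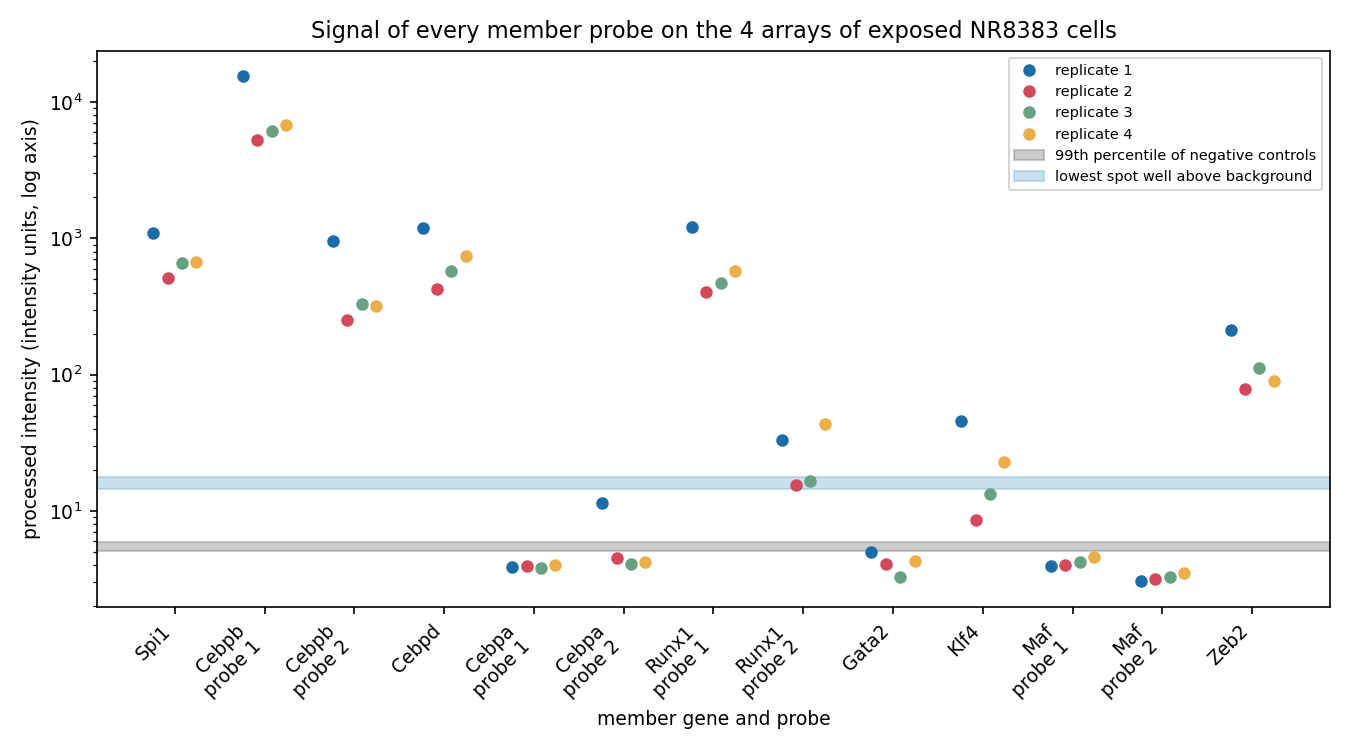
Processed intensity (log axis) of each of the 13 probes on the 4 arrays, 1 point per array; the bands give the range over arrays of the 99th percentile of negative controls and of the dimmest spot called well above background. Cebpb probe 1 gives 5277 units or more on every array, whereas both Maf probes and the Gata2 probe stay at or below the band of the negative controls.

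Spi1 was detected on every array and had the smallest spread of the 5 detected factors. Its single spot gave 1099.6 units on replicate 1 and 508, 660 and 673 on replicates 2 to 4. These signals were 141.9 to 313 times the median negative control of their array. Most of the difference between arrays was shared with the reference: the levels were −0.38, −0.20, −0.22 and −0.30 on replicates 1 to 4. The mean level was −0.28 ± 0.08 (SD, n = 4), with replicate 1 lowest and replicate 2 highest. The SD of Spi1 was larger than that of 5.19% of the 5824 genes whose chosen probe was detected on all 4 arrays. That spread depends on the reference: the SD was 0.13 with scaling to the median of detected probes and 0.15 with the percentile over all probes or after normexp correction, where Cebpd had the smaller SD, at 0.12 to 0.13.

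The C/EBP family was split. Cebpb and Cebpd were detected on every array and Cebpa on none. Sequences upstream of Cebpb and Cebpa are shown because these relatives, both known as intronless genes, fell on opposite sides of detection. Each run holds the 250 bases before the RefSeq transcription start on the plus strand of the GRCr8 rat assembly, at chr3:176816755-176817004 for Cebpb and chr1:96896334-96896583 for Cebpa. Capitals mark TATAAA, the core of a TATA box, and TGACG, the core of the cyclic AMP response element, which reads CGTCA where it lies on the opposite strand.
Cebpb: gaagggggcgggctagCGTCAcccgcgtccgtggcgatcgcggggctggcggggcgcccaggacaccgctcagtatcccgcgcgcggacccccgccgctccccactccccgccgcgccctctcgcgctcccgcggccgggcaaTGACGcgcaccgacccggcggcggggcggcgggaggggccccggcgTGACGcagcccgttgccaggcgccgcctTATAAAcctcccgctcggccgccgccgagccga
Cebpa: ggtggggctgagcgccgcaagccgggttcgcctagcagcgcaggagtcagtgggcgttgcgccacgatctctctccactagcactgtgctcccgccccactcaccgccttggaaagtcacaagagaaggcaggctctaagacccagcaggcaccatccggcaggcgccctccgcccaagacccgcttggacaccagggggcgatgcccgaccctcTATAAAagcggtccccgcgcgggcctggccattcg
Both windows hold TATAAA, starting 33 bases before the start of Cebpb and 35 bases before that of Cebpa. TGACG was found in the Cebpb window only, on the plus strand 107 and 61 bases before the start and on the opposite strand 234 bases before it. TATAAA occurs on either strand in 12.9% of all 33469 promoter windows of this length, and TGACG in 18.2%. The motifs were chosen after the windows were seen, so such shares do not measure how unusual the matches are. GC made up 80.0% of the Cebpb window and 67.2% of the Cebpa window, against a median of 51.2% over all windows. The array data do not bear on whether any of these letters is bound.

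Of the 9 factors, 7 had a window in the table; Spi1 and Cebpd had no entry. Besides Cebpa and Cebpb, Klf4 held TATAAA, at 2 places on the opposite strand, and Zeb2 held TGACG once. GGGCGG, the GC box bound by SP1, occurred in the windows of Cebpa, Cebpb and Maf and in 30.5% of all windows, and CCAAT in that of Maf and in 34.0%. GAGGAA, an ETS core that PU.1 can bind, was in none of the 7 and in 23.3% of all windows, and the C/EBP-type motif TTGCNNAA was in none and in 9.22%. Both strands were searched for each motif, and the table gives 1 start for each of the 7, so other promoters of these genes were not covered.

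Cebpb, the C/EBP of inflammatory gene control in macrophages, was read by a probe at 10 spots and by a second probe at 1 spot. The 10-spot probe averaged 15500 units on replicate 1 and 5277, 6139 and 6730 on replicates 2 to 4. All 40 spot readings were well above background and none was left out. The levels were 3.44, 3.17, 3.00 and 3.02 on replicates 1 to 4, with a mean of 3.16 ± 0.20 (SD, n = 4). Within an array the 10 spots had a coefficient of variation of 5.60% to 8.87%. Replicate 1 was the high array, and replicates 3 and 4 were the low ones. The second probe, designed on another Cebpb accession, gave 956 units on replicate 1 and 251, 331 and 317 on replicates 2 to 4. It too was highest on replicate 1, at a level of −0.58 against −1.22, −1.21 and −1.39, and its SD was 0.36.

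Cebpd, often induced by inflammatory signals, was read by 1 probe at 2 spots. The signal was 1199 units on replicate 1 and 426, 572 and 736 on replicates 2 to 4. The levels were −0.25, −0.46, −0.42 and −0.18, with a mean of −0.33 ± 0.13 (SD, n = 4). Replicate 4 was highest and replicate 2 lowest, and the paired spots differed most on replicate 1, with 1094 and 1315 units. By mean level the order of Cebpd over the arrays was not that of Cebpb. The Cebpd spots on replicate 1, at −0.12 and −0.39, lay on both sides of those on replicate 4, at −0.19 and −0.16.

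Cebpa, the C/EBP of early myeloid progenitors, was near background on both of its probes, which share an accession. The first gave 3.88, 3.96, 3.81 and 4.03 units on replicates 1 to 4, all below the 99th percentile of the negative controls. The second gave 11.4 units on replicate 1 and 4.50, 4.07 and 4.23 on the others. On replicate 1 that probe stood at 2.03 times the 99th percentile of the negative controls without being called well above background. The first probe gave no such signal on that array.

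Among the factors of stem and progenitor cells, Runx1 was detected and Gata2 was not. Runx1 encodes the DNA-binding subunit of core binding factor. Its 10-spot probe averaged 1203 units on replicate 1 and 403, 474 and 572 on replicates 2 to 4. The levels were −0.25, −0.54, −0.70 and −0.54, with a mean of −0.51 ± 0.19 (SD, n = 4). Replicate 1 was highest and replicate 3 lowest. Between 1 and 3 of the 10 spots per array were marked as outliers by the scanner software and left out, and 1 spot was marked on all 4 arrays. A second Runx1 probe, designed on a predicted transcript, was detected on replicates 1 and 4, with 33.5 and 43.4 units, and not on replicates 2 and 3, with 15.6 and 16.7 units. That dim probe was highest on replicate 4, so the Runx1 probes disagree on the order of the arrays. Cbfb, which encodes the partner subunit of RUNX1, was detected on all 4 arrays at −3.73 ± 0.42 (SD, n = 4).

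Gata2, a zinc finger factor of blood stem cells, mast cells and endothelium, gave 5.05, 4.12, 3.30 and 4.29 units on replicates 1 to 4. All 4 values lay under the 99th percentile of the negative controls. None of 7 measured mast cell and basophil markers was detected on any array, Kit and Fcer1a among them. Hdc, another of the 7, exceeded the negative controls' 99th percentile on every array by at least 1 probe, short of the call. Of 6 endothelial markers, 3 were detected on all 4 arrays, namely Cdh5, Pecam1 and Vwf, and 3 on none. Among all named genes, 53.7% were detected on no array and 35.2% on all 4.

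The factors of macrophage differentiation and identity covered the whole range from detected to background. Zeb2, a zinc finger repressor, was read by 1 spot at 212 units on replicate 1 and 78.3, 113 and 90.2 on replicates 2 to 4. The levels were −2.76, −2.90, −2.77 and −3.20, with a mean of −2.91 ± 0.21 (SD, n = 4). Replicate 4 was lowest and the others ran from −2.90 to −2.76. Without replicate 4 the SD was 0.088, and after normexp correction it was 0.14.

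Klf4 was at the edge of detection. Its probe averaged 45.9 units over 2 spots on replicate 1 and 22.8 on replicate 4, and all of these spots were well above background. On replicates 2 and 3 it averaged 8.68 and 13.4 units, and no spot was well above background. The levels were −4.96 on replicate 1 and −5.19 on replicate 4. Signal nonetheless stood above the negative controls everywhere, at 1.58 times their 99th percentile on replicate 2 and 8.16 times on replicate 1. Of all 16581 named genes, 179 were detected on replicates 1 and 4 and on neither of the others. Replicate 1 also had the most detected probes of all arrays, 14407 against 10809 to 12038 on the other three, and its part in the Klf4 calls was not tested.

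Maf gave no signal above background on either of its probes. The first gave 3.95 units on replicate 1 and 4.05, 4.25 and 4.60 on replicates 2 to 4, and the second 3.05 to 3.51 units. Every one of these values was below the 99th percentile of the negative controls.

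For the factors at background, levels carry no order. The median negative control itself lay at a level of −8.67 on replicate 1 and −7.35, −7.71 and −7.76 on replicates 2 to 4. Both Maf probes, the Gata2 probe and the first Cebpa probe were likewise lowest on replicate 1 and highest on replicate 2. Their SDs of 0.42 to 0.58 therefore moved with the scaled background.

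The spread of the 5 detected factors between arrays was then set beside that of all detected genes. The SDs were 0.08 for Spi1, 0.13 for Cebpd, 0.19 for Runx1, 0.20 for Cebpb and 0.21 for Zeb2, with a median of 0.186. The median over the 5824 detected genes was 0.225, and all 5 factors, each by its chosen probe, lay below it. The second Cebpb probe, also detected on all 4 arrays, lay above it at 0.36. By their chosen probes, Runx1, Cebpb and Zeb2 had larger SDs than 35.5%, 41.6% and 44.1% of these genes. The chosen Cebpb and Runx1 probes average up to 10 spots, whereas the array held 58717 spots for 45598 probes. The SDs were not adjusted for spot number. With the mean over detected probes Cebpb had 0.28, against a median of 0.224 over all genes. Without replicate 1 the factors' median was 0.094 against 0.189 over all genes, and without replicate 4 it was 0.114 against 0.239. Without replicate 2 the order turned, with 0.231 for the factors against 0.190 over all genes. After quantile normalization the SD of Cebpb was 0.31, against a median of 0.219 over all genes, and after normexp correction 0.23 against 0.183. The highest array exceeded the lowest by 0.18 (log2) for Spi1, 0.28 for Cebpd, 0.44 for Cebpb, 0.45 for Runx1 and 0.45 for Zeb2, which is at most 1.36-fold. For Cebpb this depends on the processing and on the probe: its range was 0.68, or 1.60-fold, after quantile normalization. Under the scaling reported, its second probe spanned 0.81, or 1.75-fold. Of all detected genes, 522 (8.96%) spanned 2-fold or more. Such spread holds culture, RNA extraction, labelling and hybridisation together.

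**Figure D2:**
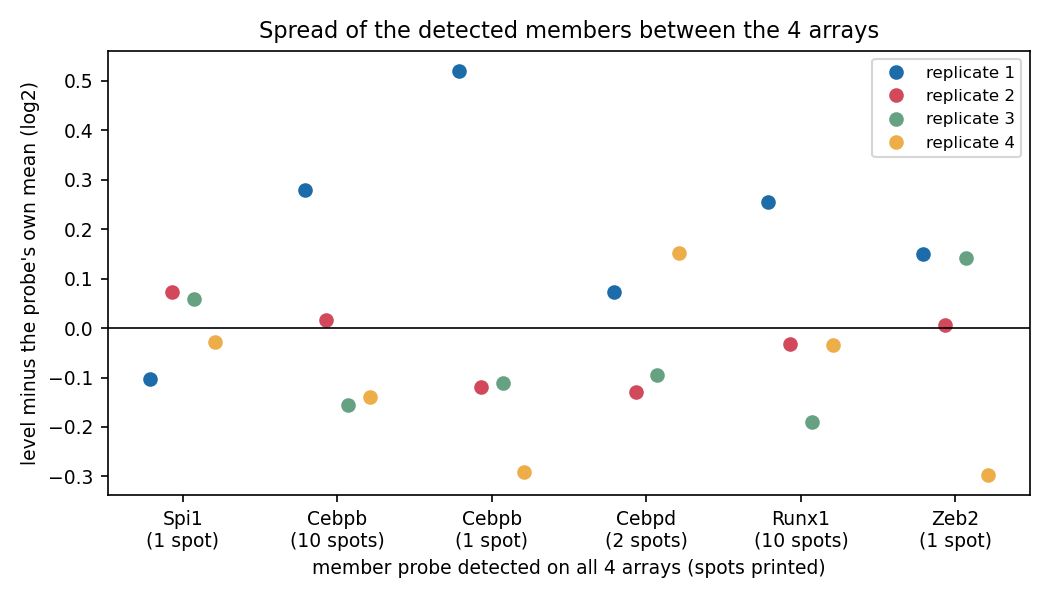
Level of each member probe detected on all 4 arrays minus that probe's own mean (log2), 1 point per array, with the number of printed spots under each name. Both Cebpb probes and Runx1 are highest on replicate 1, Spi1 is lowest there, and Cebpd is highest on replicate 4.

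Cebpb, Runx1 and Zeb2 were highest on replicate 1, Spi1 on replicate 2 and Cebpd on replicate 4. Cebpb and Runx1 stayed highest on replicate 1, and Spi1 lowest there, under each other scaling or background correction tried. Zeb2 did not: it was highest on replicate 3 under the other scalings and after normexp correction. Over all detected genes, 37.8% were highest on replicate 1 and 28.0%, 19.1% and 15.1% on replicates 2 to 4.

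The probes of Cebpb, Cebpd and Runx1, printed at several spots and detected on all arrays, could be tested between arrays. The test was limma's moderated F with spots as replicates within an array and Benjamini-Hochberg adjustment over the 1594 probes of this kind. Since the spots share 1 culture's RNA, it sets arrays against spot error and says nothing of the treatment. Cebpb differed between arrays (limma adjusted p = 1.73e-11) by 0.44 from the highest array to the lowest, or 1.35-fold. Runx1 differed as well (limma adjusted p = 7.36e-11), by 0.45 or 1.36-fold. Cebpd did not pass, at a difference of 0.28 (limma adjusted p = 0.0680), although both of its spots on replicate 4 lay above those on replicates 2 and 3. Of all 1594 probes, 85.2% passed by adjusted p alone, so a pass was the usual outcome. With a 2-fold minimum added, 4.64% passed and none of the 3 factors did; 2 of them had an unadjusted limma p under 0.05.

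**Figure D3:**
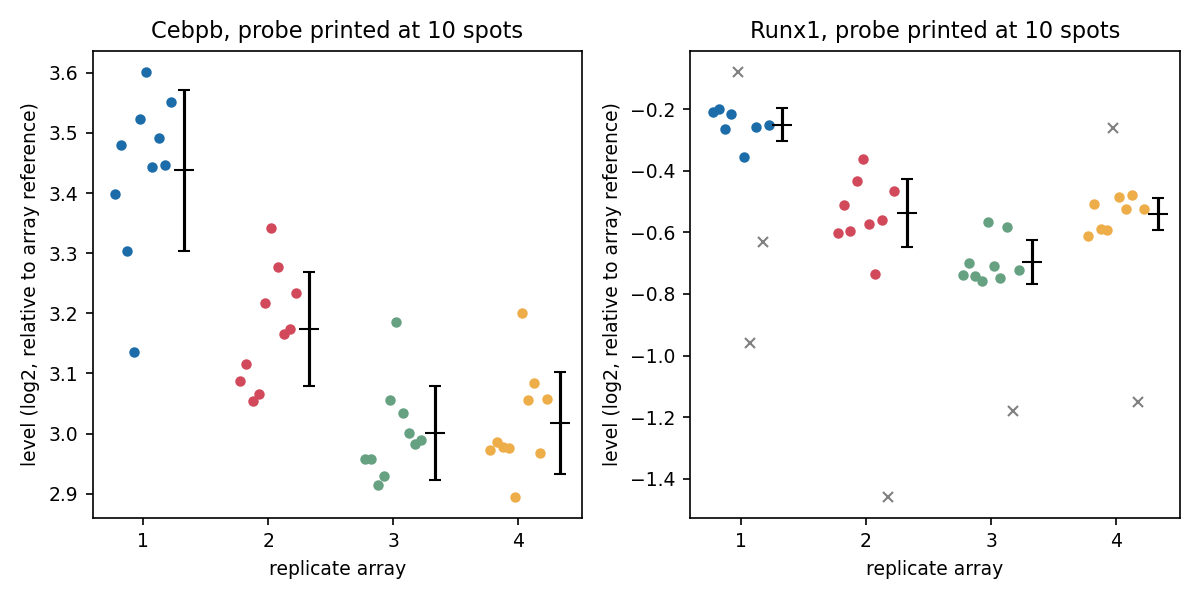
Level (log2, relative to the array reference) of each of the 10 spots of the Cebpb probe and of the Runx1 probe on each array; crosses are spots left out as outliers, and the bar gives the mean ± SD of the spots used. Replicate 1 is highest for both genes, at 3.44 for Cebpb and −0.25 for Runx1.

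The differences of Cebpb and Runx1 rested largely on replicate 1. Without that array the highest and lowest levels were 0.17 apart for Cebpb (limma adjusted p = 0.000312) and 0.16 apart for Runx1 (limma adjusted p = 0.000689). Cebpd passed only in that run (limma adjusted p = 0.00678), at a difference of 0.28. Over all other settings its adjusted p ran from 0.0536 to 0.185, that of Cebpb from 7.12e-17 to 1.09e-05 and that of Runx1 from 2.88e-11 to 1.73e-05.

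Genes whose pattern over the 4 arrays was most like that of Zeb2, the detected factor with the highest SD, were found by the root mean square difference of deviations from each gene's own mean. They were Hexim2 at 0.0081, Wdr55 at 0.013 and Crkl at 0.018 (log2). In all, 139 of 5823 genes lay within 0.1, so that 4 arrays single out no gene.

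The wider network was then counted. Of 36 measured partner factors, relatives and cofactors that act beside the 9 in myeloid cells, 20 were detected on every array, 7 on some of them and 9 nowhere. The shares over all named genes were 35.2%, 11.2% and 53.7%. The interferon regulatory factor Irf5 was at 0.87 ± 0.13 (SD, n = 4). Cebpe, the C/EBP of late granulocyte maturation, was at −1.95 ± 0.26, with levels of −2.28, −1.66, −1.94 and −1.92. It was detected although Cebpa was not. Irf8, which acts with PU.1 in monocytes, and Runx3, a relative of Runx1, were detected on no array. Irf8 had 15.8 units on replicate 3, short of the call, against 3.15 to 5.62 on the others. The median SD of the 20 detected partners was 0.260.

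**Figure D4:**
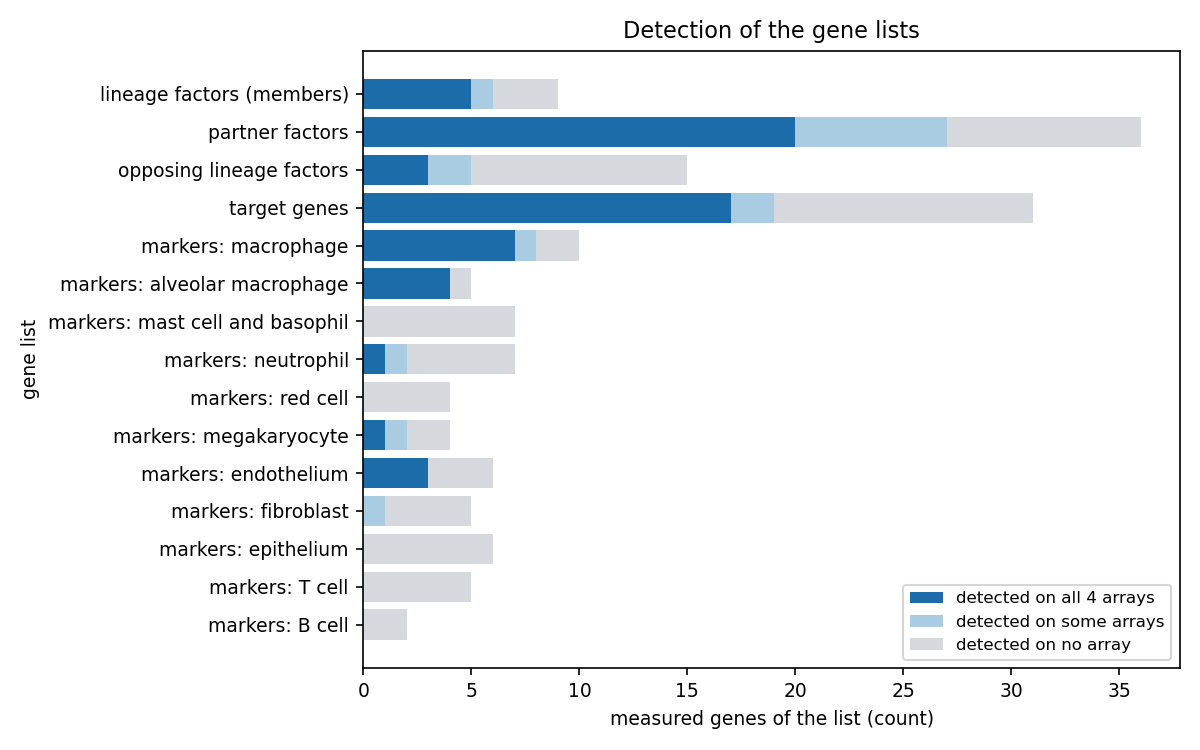
Number of measured genes of each list that were called on all 4 arrays, on some, or not at all. The 9 lineage factors divide into 5, 1 and 3, the opposing lineage factors into 3, 2 and 10, and none of the red cell, epithelial, T cell, B cell or mast cell markers is detected. Over all named genes, not drawn, the shares are 35.2% on all 4, 11.2% on some and 53.7% on none.

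Of 15 measured factors that direct red cell, megakaryocyte, B cell or T cell fates, 10 were detected on no array, Gata1 and Klf1 of the red cell lineage among them. Of all named genes, 53.7% were likewise detected on no array, and 35.2% on all 4. Nfe2 and Ebf1 were detected on 1 array each. Zfpm1, Pax5 and Tbx21 were detected on all 4. Tbx21, which encodes the T cell factor T-bet, gave 13547 units on replicate 1 and 8030, 10158 and 9687 on replicates 2 to 4. Its levels were 3.24, 3.78, 3.73 and 3.54, a mean of 3.57 ± 0.24 (SD, n = 4). Zfpm1, whose product FOG-1 is the cofactor of GATA factors, was at −2.09 ± 0.15, and the B cell factor Pax5 at −3.43 ± 0.41 (SD, n = 4). No T cell marker out of 5 measured and neither of the 2 measured B cell markers was detected, although Cd3d, with 10.9 to 20.1 units, exceeded the negative controls' 99th percentile on every array. Tbx21 and Pax5 were each read by 1 spot. With signal above the negative controls' 99th percentile as the rule, 6 of the 15 passed on every array in place of 3. Klf1, with 6.71 to 12.2 units, was among these 6, and Gata1 was not. For this looser rule no share over all named genes is given.

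Known target genes of the 9 factors were detected in part: of 31 measured, 17 were detected on every array, 2 on some and 12 nowhere. Among all named genes these outcomes made up 35.2%, 11.2% and 53.7%. The growth factor receptor gene Csf2ra, a target of PU.1, was at −0.87 ± 0.15, and the integrin gene Itgb2 at −0.24 ± 0.18 (SD, n = 4). Csf1r, a classic target of PU.1 and RUNX1, was highest on replicate 1, at −2.38 against −3.07, −3.41 and −3.24. Itgam was lowest there, at −2.11 against −1.58, −1.43 and −1.22. Csf3r, a target of C/EBPα, and Csf2rb were detected on no array. Tlr4 was detected on the same arrays as Klf4, replicates 1 and 4, and Mrc1 on replicate 1 only. Of all 16581 named genes, 179 had the first pattern and 854 the second.

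Markers of the labelled cell type were present in part. Of 15 measured macrophage and alveolar macrophage markers, 11 were detected on every array and 1 on some, while Adgre1, Mertk and Marco were not detected. Among the 11 were Cd68, Csf1r, Itgam and Cd14, and Pparg, Siglec1, Fabp4 and Fabp5 of alveolar macrophages. Of 46 measured markers of other cell types, 38 were detected on no array, 3 on some and 5 on all. These 5 were Camp, Gp9, Cdh5, Pecam1 and Vwf. Over all named genes, the shares were 35.2% on every array, 11.2% on some and 53.7% on none.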

How the data were processed

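Total RNA (100 ng, RIN above 7.5) was labelled with Cy3, per the labels' protocols. The authors deposited spot intensity from Agilent Feature Extraction 11.0.1.1 (protocol GE1_1100_Jul11, design 074036): per the file headers this intensity had local background and a spatial trend removed, and no scaling between arrays. All 4 arrays shared 1 slide and 1 scan; no spot was saturated.

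Values exclude control spots and outlier spots, while detection calls include the outlier spots. Spots of a probe were averaged as log2, then set against the array's 75th percentile over the 10438 probes detected on all arrays, since these were 22.9% of 45598. Accessions without version were matched to the RefSeq GRCr8 table, used for names and promoter sequences: 21109 probes (46.3%) matched. A gene's level is that of its brightest probe, detected ones first. Array number, 4, limits precision. The study's design text calls the cultures biological replicates.

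The members and lists were chosen with earlier results of these data known. Motifs were chosen after the windows were seen. Of each list, the first 4 genes detected on all arrays and the first 2 detected on none were to be named; Csf1r to Itgb2 are these 4 for the targets. Cebpe falls under this rule, and 1 other gene it picks is not reported here. Irf8 and Csf2rb values, Tlr4, Mrc1, Nfe2, Ebf1, Cd3d, the other markers and the genes of the closing section were singled out after their values were seen. R 4.3.3 with limma 3.58.1 (lmFit, eBayes) ran the tests, checked on simulated data. Python 3.11.15 did the rest, with figures from matplotlib 3.10.9.

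Alternatives were a reference at the median of detected probes or at the 75th percentile of all probes, quantile normalization, normexp with an offset of 50 (on the median spot signal), the mean over probes, dim probes kept, stricter or looser detection and fold minima, and each replicate left out.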

Additional observations from a re-analysis of the deposited data

How the results depend on the processing

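The count of 5 factors detected on all 4 arrays was 5 with any replicate left out, 4 when every probe of a gene had to pass, which removes Runx1, and 6 where the rule was exceeding the negative controls' 99th percentile, which adds Klf4. Under that rule 6 of the opposing lineage factors passed on all arrays in place of 3. No share over all named genes is given for that rule, so these rises cannot be set beside the whole array. The median SD of the 5 detected factors was 0.186, ran from 0.149 to 0.186 under the other scalings, corrections and probe rules, and from 0.094 to 0.231 with a replicate left out; the low value was without replicate 1, and without replicate 4 it was 0.114. The SD of Cebpb was 0.31 after quantile normalization, that of Spi1 0.15 after normexp. Without a fold minimum 2 factors passed the test between arrays, and 0 did with a minimum of 1.5 under the scaling reported, or with a minimum of 2 under each setting run. The cause of these shifts was not tested. Dim probes limit Klf4 and the second Runx1 probe, and nothing can be said of Cebpa, Maf and Gata2 beyond their signal lying near background. No paired analysis was possible because the samples form 1 group.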

Other observations

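Of 7 measured neutrophil markers, only Camp, the cathelicidin gene, was detected on every array, with levels of −0.37, −0.35, −0.04 and −0.03 on replicates 1 to 4. S100a8 was detected on 2 arrays, and Elane, Prtn3, S100a9, Ltf and Ngp on none, as were 53.7% of all named genes. Lcn2, which encodes the iron-trapping protein lipocalin 2 and stood among the target genes, was at 5.00 ± 0.23 (SD, n = 4) and was highest on replicate 2, at 5.32.

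Among the partner factors, Pparg, the nuclear receptor of alveolar macrophage development, was the steadiest, with levels of 1.71, 1.61, 1.73 and 1.68 (SD 0.053, n = 4). Mitf, which PU.1 can partner in bone-resorbing macrophages, had the highest SD of the 20 detected, 0.64. It was lowest on replicate 1, at −2.99 against −1.71, −1.59 and −2.30. Its relative Tfec was detected on 3 arrays and was highest on replicate 1, at −3.41 against −5.33 on replicate 3 and −4.42 on replicate 4. It was not well above background on replicate 2.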
